A study of Mus musculus with 29 samples.

Results

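The genes of oxidative phosphorylation encode the nuclear subunits of the 4 respiratory chain complexes and of ATP synthase. They were chosen here by symbol, as every gene whose name starts with Nduf followed by a, b, c, s or v, Uqcr, Cox4 to Cox8 or Atp5, and the 4 Sdh subunit genes. The rule found 90 genes of 18194 that a probe set reads on its own, covered by 179 probe sets. It uses names and no measured value, but it was chosen with earlier results of these data known. The Ndufaf genes, which code for assembly factors of complex I and not for subunits, match the rule and are kept as a group of their own. The 90 genes comprise 6 core subunits, 28 accessory subunits and 8 assembly factors of complex I, 4 subunits of complex II, 8 of complex III, 10 ubiquitous subunits and 9 tissue isoforms or relatives of complex IV, and 5 F1 and 12 stalk or membrane subunits of complex V. A further 10 probe sets whose symbols match are shared by several genes and were not used.

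Retinas of 5 inbred mouse strains were profiled before birth, at E18.5, and after birth, at P30.5 (days of embryonic and postnatal life). The strains were RD7, NOD.NON-H2-nb1, CAST/EiJ, AKR/J and C57BL6/J. RD7 mice carry the rd7 mutation of Nr2e3, a nuclear receptor of rod photoreceptors, the other strains are inbred strains that differ from each other at many loci, and no group was treated. Each array held RNA pooled from 10 retinas, with 3 arrays in each group and 2 for AKR/J at E18.5, so an array averages several animals, and p-values measure the spread between pools. C57BL6/J was the reference of every strain comparison, so those comparisons share their control arrays.

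Oxidative phosphorylation takes electrons from NADH at complex I and from succinate at complex II, passes them through complex III to oxygen at complex IV, and uses the proton gradient that results to make ATP at complex V. The photoreceptors of the adult retina hold dense mitochondria in their inner segments and are among the most energy-demanding cells of the body. The retina at the end of gestation still holds many dividing progenitors. Most subunits are made in every tissue. Complex IV also has isoforms that are used in heart and skeletal muscle (Cox6a2, Cox7a1, Cox8b), in testis (Cox6b2, Cox7b2, Cox8c) and in lung (Cox4i2).

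The promoters of nuclear respiratory genes are known for binding sites of NRF1 and GABP. Of the 90 genes, 74 have an entry in the RefSeq promoter table of GRCm38.p6, which runs from 250 bases before the start of transcription to 50 after it. GCGCA and GCGC with any 1 base between them, a form of the NRF1 site, occur on either strand in 16 of these 74 promoters (21.6%) and in 4.78% of all 27025 promoters in the table. The letters CCGGAAG, a GABP site, occur in 18 of the 74 (24.3%) and in 9.12% of all. AAGATGGC, a YY1 site, occurs in 9 (12.2%) and in 2.88% of all, and AAGGTCA, a site of the estrogen-related receptors, in 8 (10.8%) and in 4.66% of all. TAATCC, the core of the photoreceptor factor CRX, occurs in 5 of the 74 (6.76%) and in 7.16% of all. CAGCTG, the E-box of myogenic factors, occurs in 6 (8.11%) and in 16.1% of all, and CTA and TAG with 4 bases between them, a MEF2 site, in 2 (2.7%) and in 3.7% of all. None of these strings contains another, and a match of letters is not evidence of binding.

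Sequences are shown for 3 of the 4 genes that were higher at P30.5 in every strain (Sdha, Ndufaf5 and Ndufv1; Ndufs1 has no entry) and for the muscle isoform Cox8b. Each runs 5′ to 3′ on the strand of the gene, in GRCm38.p6. Capitals mark the NRF1 letters in the first 3 and CAGCTG in Cox8b.
Sdha (chr13:74350191-74350490, minus strand): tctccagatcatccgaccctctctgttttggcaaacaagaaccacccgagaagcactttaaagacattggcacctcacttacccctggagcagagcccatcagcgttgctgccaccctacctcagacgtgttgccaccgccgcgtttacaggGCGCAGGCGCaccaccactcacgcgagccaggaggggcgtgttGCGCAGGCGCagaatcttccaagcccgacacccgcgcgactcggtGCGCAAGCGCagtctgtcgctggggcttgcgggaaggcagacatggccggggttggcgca
Ndufaf5 (chr2:140170396-140170695, plus strand): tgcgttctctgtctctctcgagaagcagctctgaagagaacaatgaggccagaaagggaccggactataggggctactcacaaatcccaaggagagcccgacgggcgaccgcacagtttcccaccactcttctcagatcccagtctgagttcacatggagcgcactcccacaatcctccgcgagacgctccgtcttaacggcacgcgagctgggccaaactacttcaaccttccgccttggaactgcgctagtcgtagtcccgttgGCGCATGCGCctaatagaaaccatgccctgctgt
Ndufv1 (chr19:4012706-4013005, minus strand): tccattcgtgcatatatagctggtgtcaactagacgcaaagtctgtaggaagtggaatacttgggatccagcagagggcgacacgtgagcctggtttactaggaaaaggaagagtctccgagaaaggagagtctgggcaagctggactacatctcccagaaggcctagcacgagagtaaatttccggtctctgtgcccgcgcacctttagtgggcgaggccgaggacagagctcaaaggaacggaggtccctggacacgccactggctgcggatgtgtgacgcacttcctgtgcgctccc
Cox8b (chr7:140900397-140900696, minus strand): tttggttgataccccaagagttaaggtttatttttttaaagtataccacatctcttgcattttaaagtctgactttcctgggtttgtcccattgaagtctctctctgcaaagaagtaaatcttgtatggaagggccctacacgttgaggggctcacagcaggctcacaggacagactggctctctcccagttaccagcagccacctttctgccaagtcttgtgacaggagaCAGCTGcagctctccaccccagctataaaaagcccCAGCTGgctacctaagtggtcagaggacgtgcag
The NRF1 letters begin 98, 55 and 10 bases before the start in Sdha and 16 bases after it in Ndufaf5, and they are not in the window of Ndufv1. In Cox8b the E-box begins 19 bases before and 16 bases after the start. These letters are thus in 2 of the 3 windows of genes that rose in every strain.

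Expression is given as the log2 of the MAS5 signal, the fluorescence summary of Affymetrix arrays, which carries no read depth; its precision is limited by the 2 or 3 arrays a group. Where several probe sets read 1 gene, the brightest on average stands for it. The mean log2 signal of 9 rod markers was 5.31 to 7.62 over the arrays at E18.5 and 12.98 to 13.94 at P30.5, and that of 6 markers of dividing progenitors fell from 12.23 to 12.82 to 4.50 to 6.92, so both ages matched their label. The 12 skeletal muscle markers stood at 5.46 to 11.80 before birth and at 4.38 to 6.13 after birth, and 6 of the 14 arrays at E18.5 had a mean of 10 or more. Those were both AKR/J pools, 1 of CAST/EiJ, 1 of NOD.NON-H2-nb1 and 2 of RD7. Markers of mesenchyme ranged from 4.93 to 11.54 at E18.5. In AKR/J, 11 of 12 muscle and 11 of 11 mesenchyme markers were lower at P30.5. In bulk tissue, fewer cells of a type and less RNA in each cell cannot be told apart.

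The oxidative phosphorylation genes were bright on these arrays. Their median mean log2 signal was 12.03, against 8.11 over all genes, and 60 of 90 had a mean of 11 or more, against 12.3% of all genes. Only 9 fell below 8. Replicate pools of a group differed by a median SD of 0.28 across these genes. Brightness also depends on the probes, so signals are not compared between genes. In the RMA table deposited beside the MAS5 signals, which holds 56.4% of the probe sets, only 20 of the 90 representative probe sets appear.

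With age, most of these genes moved little. At an adjusted p under 0.05 for P30.5 against E18.5, 14 of 90 genes were called in C57BL6/J (8 higher, 6 lower), which is 15.6% against 35.0% of all genes. The counts were 16 in RD7 (9 higher, 7 lower, all genes 34.3%), 12 in NOD.NON-H2-nb1 (9 and 3, 33.4%), 13 in CAST/EiJ (10 and 3, 34.0%) and 10 in AKR/J (7 and 3, 31.6%). At the stricter threshold of the methods, which asks for a 2-fold or larger change with an adjusted p below 0.001, they were 1 in RD7 (all genes 14.9%), 1 in NOD.NON-H2-nb1 (15.5%), 1 in AKR/J (14.4%), 2 in C57BL6/J (16.2%) and 4 in CAST/EiJ (15.7%). Of all genes with a mean log2 signal of 8 or more, 44.2% or more were called in each strain. Of the 81 oxidative phosphorylation genes in that range, 9.88% to 17.3% were. The median mean signal of the former was 9.92, against 12.03 for the 90, so these sets were not matched for brightness. The median age change over the 90 genes was -0.01 in RD7, 0.11 in NOD.NON-H2-nb1, 0.06 in AKR/J, and 0.12 in both C57BL6/J and CAST/EiJ, beside 0.01 to 0.08 over all genes. In 51 genes (56.7%) the change was within 0.5 of 0 on the log2 scale in all 5 strains. The same held for 14.1% of all genes and for 24.3% of genes with a mean log2 signal of 8 or more. In 55 of the 90, the 95% interval of the change lay inside 2-fold either way in every strain. That count was not made for all genes. With array date as a block, which the pools of the same date shared, the counts were 22 in RD7 (39.9% of all genes under that block), 27 in NOD.NON-H2-nb1 (39.0%), 23 in AKR/J (37.3%), 21 in C57BL6/J (36.3%) and 28 in CAST/EiJ (39.6%). C57BL6/J E18.5 pool 3 was alone on its date, so under the block it does not bear on any comparison. Centring the arrays on their medians changed the split to 6 higher and 8 lower in C57BL6/J and to 4 higher and 10 lower in RD7. Quantile normalization gave 9 higher and 9 lower in RD7. Shares of all genes under these scalings were not computed.

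**Figure D1:**
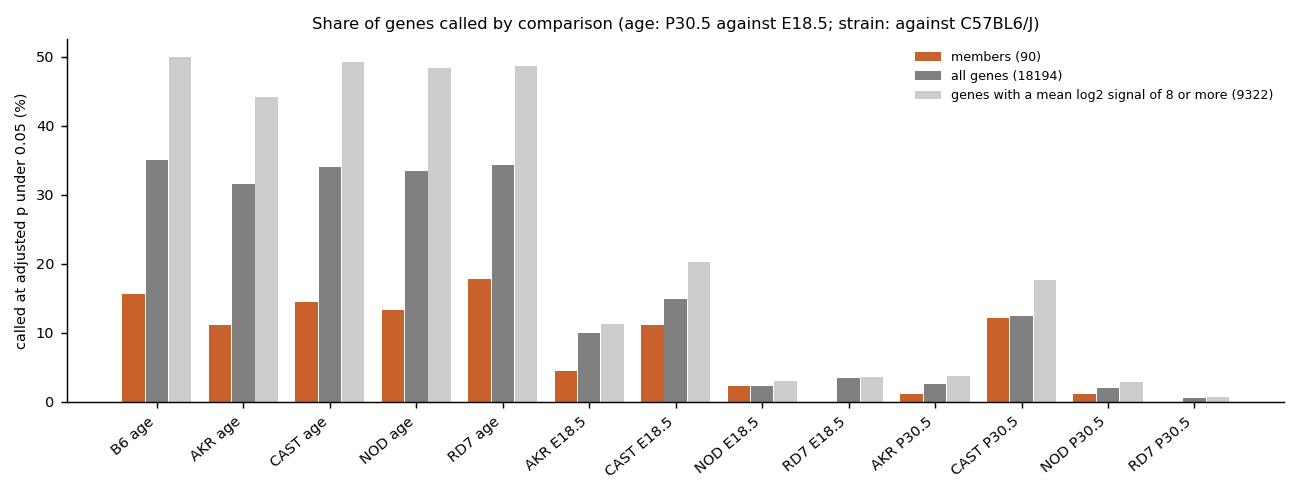
Bars give the percentage of genes called at an adjusted p under 0.05 (vertical axis) in 13 comparisons (horizontal axis, strains by the start of their names and B6 for C57BL6/J), for the 90 oxidative phosphorylation genes, for all genes and for genes with a mean log2 signal of 8 or more. The age comparisons called 11.1% to 17.8% of the oxidative phosphorylation genes and 31.6% to 35.0% of all genes; none was called between RD7 and C57BL6/J.

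Of the 90, 16 were higher at P30.5 in at least 1 strain (17.8%, against 27.7% of all genes) and 11 lower in at least 1 (12.2%, against 27.1%). Of the 16, 4 were called in all 5 strains and 6 in 1 strain. None was called in both directions, as 0.698% of all genes were, and 63 were called in no strain (70.0%, against 46.0% of all genes). These tallies are from the fit without array date. With date as a block some of the 63 were called, Ndufa12, Cox7a2, Cox8c and Ndufaf2 among them, so fewer then had no call. Higher in all 5 strains were Ndufs1 and Ndufv1, core subunits of complex I, Ndufaf5, an assembly factor that modifies a core subunit of complex I, and Sdha, the flavoprotein of complex II that oxidises succinate. Those 4 are 4.44% of the 90, whereas 9.33% of all genes were higher in all 5 strains. Ndufa4l2 was the 1 gene of the 90 lower in all 5 (1.11%, against 9.15% of all genes).

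**Figure D2:**
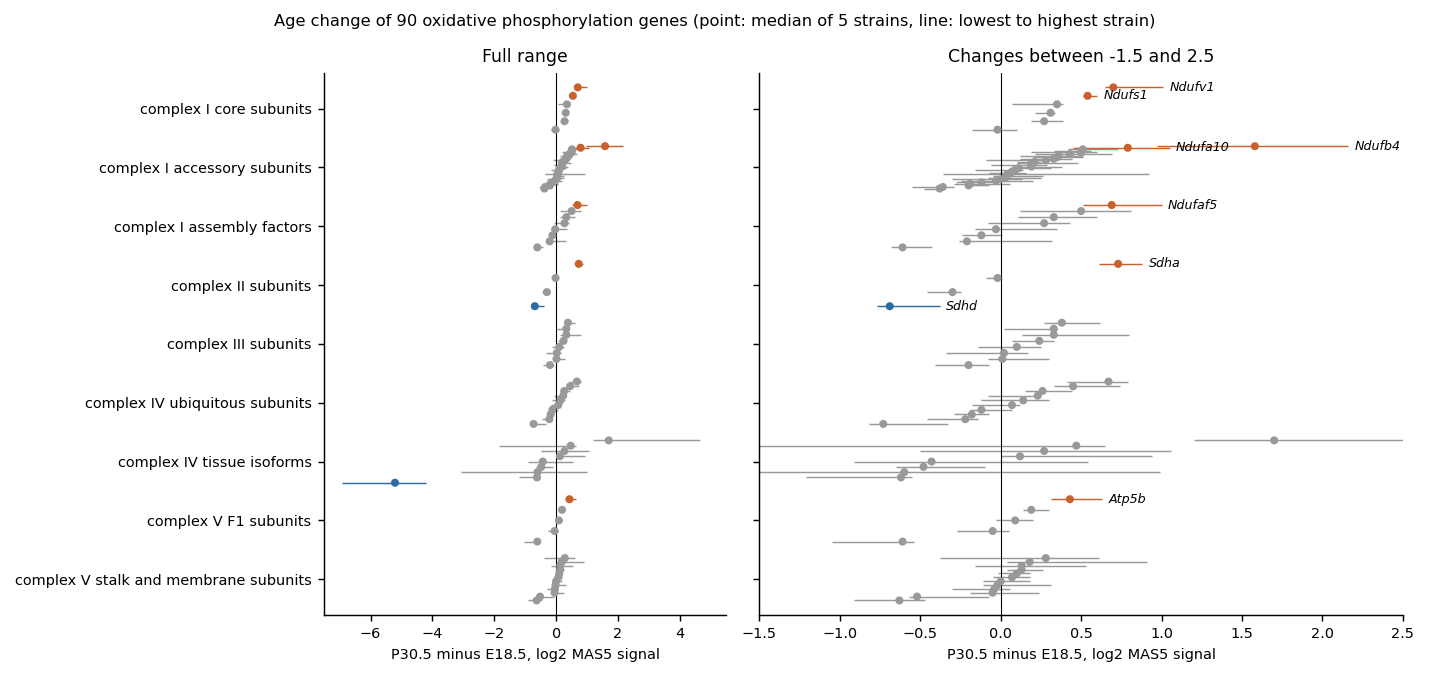
Age change (P30.5 minus E18.5, log2 MAS5 signal, horizontal axis) of the 90 genes by functional group (vertical axis); each point is the median of the 5 strains and each line runs from the lowest to the highest strain, with the full range on the left and an enlargement on the right. Orange genes were called higher and blue genes called lower in 3 or more strains, among them Ndufb4 with a median of 1.58, Sdha with 0.73, Sdhd with -0.69 and Ndufa4l2 with -5.21.

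Complex I takes electrons from NADH. In its core, Ndufs1 and Ndufv1 rose in every strain, and the other 4 core subunits measured (Ndufs3, Ndufs7, Ndufs8 and Ndufv2) were called in none. With array date as a block, Ndufs3 passed in 3 strains and Ndufs7 in 1. Ndufs1, which holds iron-sulfur clusters of the electron path, stood at 11.22, 11.51 and 11.25 in the C57BL6/J pools at E18.5 and at 11.88, 12.02 and 11.68 at P30.5. The 2 sets of pools did not overlap, and the change was 0.54 ± 0.15 (SE, adjusted p = 0.00716). Over the 5 strains the change of Ndufs1 ran from 0.51 to 0.60, with no overlap in any strain. Centring the arrays on their medians left it past the threshold in neither C57BL6/J (0.43, adjusted p = 0.0619) nor RD7 (0.39, 0.0948). The Ndufs1 call also rested on single pools in 3 strains: it was lost in NOD.NON-H2-nb1 without E18.5 pool 1 (0.42, adjusted p = 0.0701) or P30.5 pool 2 (0.37, 0.105), in RD7 without E18.5 pool 3 (0.43, 0.064) and in AKR/J without E18.5 pool 2 (0.58, 0.0682).

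Ndufv1, the NADH-binding subunit, rose by 0.65 ± 0.17 in C57BL6/J (adjusted p = 0.00444), from 12.57, 12.27 and 12.30 to 13.05, 13.24 and 12.79. In CAST/EiJ it rose by 1.01 ± 0.17 (adjusted p = 3.62e-05), from 10.99, 11.06 and 10.49 to 11.84, 12.17 and 11.55. All 3 probe sets of Ndufv1 were called higher in all 5 strains. By contrast Ndufv2, the partner of Ndufv1 in the NADH-oxidising module, had a median change of -0.02 over the strains and a range from -0.18 to 0.10.

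Among the 28 accessory subunits, between 1 and 4 were higher in a strain, and Ndufs4 and Ndufa3 were called lower in C57BL6/J (named after their values were seen). Over the 5 strains Ndufs4 changed by -0.48 to -0.36 and passed in all of them with array date as a block, while a dimmer probe set of Ndufs4 was called higher in C57BL6/J (1.04, adjusted p = 0.0236). Ndufa3 changed by -0.55 to -0.29, and its call in C57BL6/J was lost without any 1 of 5 of the 6 pools (-0.61 to -0.36). Ndufb4 was higher in 4 strains (0.97 ± 0.40 with adjusted p = 0.0749 in C57BL6/J, and 1.18 to 2.16 in the others). Its only usable probe set was dim, with 5.77, 6.15 and 5.17 in C57BL6/J at E18.5 and 6.67, 6.69 and 6.63 at P30.5, and no pools overlapped in any strain. In AKR/J the call rested on 1 pool: Ndufb4 measured 5.82 and 4.13 at E18.5, and without the second pool the change was 1.01 (adjusted p = 0.186). In NOD.NON-H2-nb1 the Ndufb4 call was lost without any 1 of 5 of its 6 pools (1.03 to 1.22). Ndufa10, a kinase-like accessory subunit, rose in RD7 (0.79 ± 0.15), NOD.NON-H2-nb1 (0.69 ± 0.15), CAST/EiJ (1.05 ± 0.15) and C57BL6/J (0.83 ± 0.15), with adjusted p of 0.00076 or less, and reached 0.45 in AKR/J (adjusted p = 0.0521). The smallest change was that of Ndufb6, with a median of 0.00 over the strains.

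Of the 8 assembly factors, Ndufaf5 rose in all strains. It stood at 8.64, 9.02 and 9.08 in C57BL6/J at E18.5 and at 9.49, 9.78 and 9.45 at P30.5, a change of 0.66 ± 0.16 (adjusted p = 0.00225), and the changes over the strains ran from 0.51 in RD7 to 1.0 in CAST/EiJ. In RD7 it did not pass with the arrays centred on their medians (0.39, adjusted p = 0.114) or with RMA values (0.31, adjusted p = 0.146), nor without P30.5 pool 2 (0.39, 0.111), and in AKR/J it did not pass without E18.5 pool 1 (0.59, 0.0793). Ndufaf3 was called higher in AKR/J (0.81) and RD7 (0.58), where leaving out 1 pool gave 0.49 and 0.40 at the lowest and no call, and the other 6 were called in no strain. Ndufaf2 was below 0 in every strain, with a median of -0.61, and passed in none, but with array date as a block it passed in all strains but CAST/EiJ.

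In complex II, the only complex whose subunits are all encoded in the nucleus, 1 of the 4 subunits rose in every strain, 1 fell in 3 strains, and Sdhb (-0.46 to -0.25) and Sdhc (-0.09 to 0.01) passed in none. With array date as a block, Sdhb passed in RD7. Sdha was the subunit that rose: in C57BL6/J from 12.81, 12.89 and 12.83 to 13.50, 13.54 and 13.33 (0.61 ± 0.14, adjusted p = 0.00166). In AKR/J it went from 12.71 and 12.62 to 13.27, 13.38 and 13.22 (0.62 ± 0.16, adjusted p = 0.00442). In CAST/EiJ the pools went from 11.43, 11.59 and 11.82 to 12.44, 12.39 and 12.66 (0.88 ± 0.14, adjusted p = 2.44e-05). The changes were 0.73 ± 0.14 in both NOD.NON-H2-nb1 (adjusted p = 0.000276) and RD7 (0.000278), and a second bright probe set of Sdha rose by 0.87 to 1.06 over the 5 strains.

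Sdhd, which anchors complex II in the membrane, went the other way. It measured 10.85, 11.33 and 11.27 in C57BL6/J at E18.5 and 10.53, 10.60 and 10.25 at P30.5, and it fell in C57BL6/J (-0.69 ± 0.16, adjusted p = 0.00146), CAST/EiJ (-0.70 ± 0.16, 0.00119) and RD7 (-0.77 ± 0.16, 0.00045). In AKR/J and NOD.NON-H2-nb1 it was at -0.41 (adjusted p = 0.102) and -0.38 (0.0857). Sdhc is the other anchor. The median of the Sdhd probe sets was smaller and did not pass, at -0.43 in C57BL6/J (adjusted p = 0.377), -0.47 in CAST/EiJ (0.333) and -0.67 in RD7 (0.103). The RMA values of its second probe set were -0.26 (adjusted p = 0.13), -0.48 (0.00663) and -0.54 (0.00272) in the same strains.

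**Figure D3:**
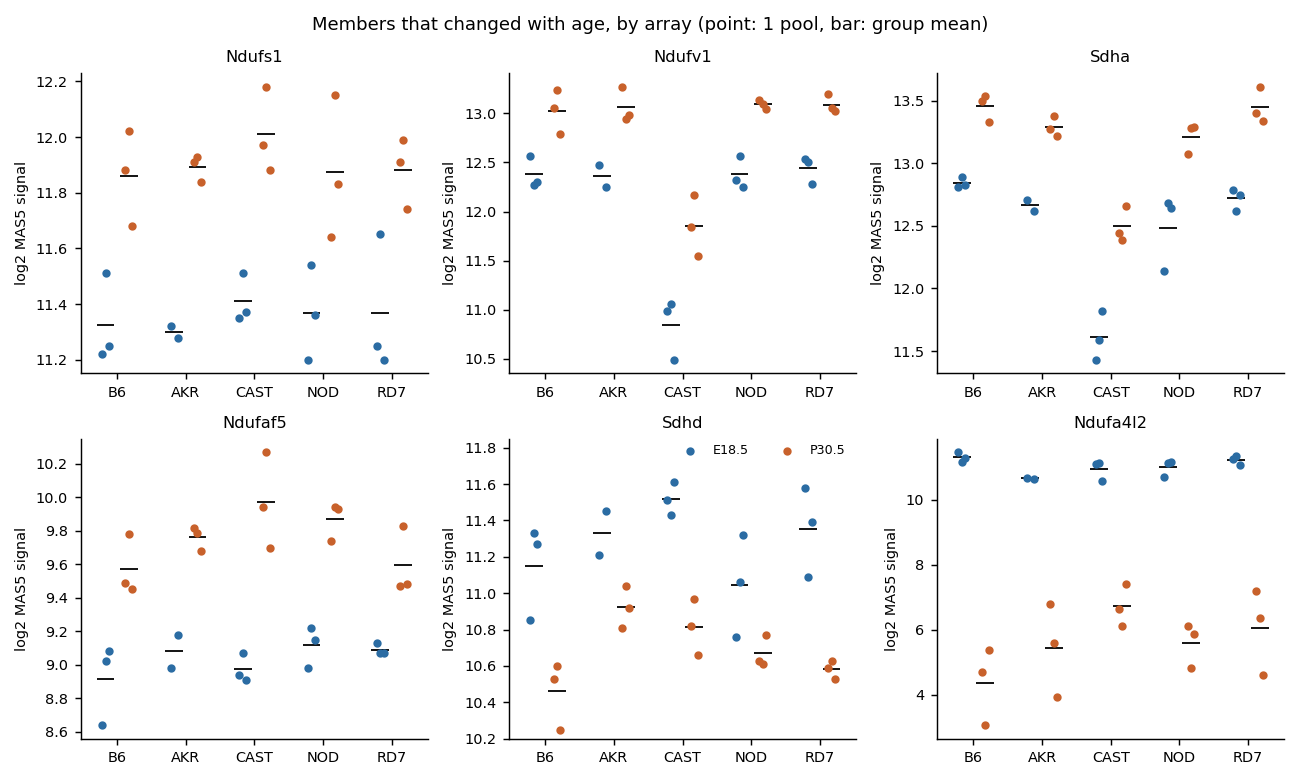
Log2 MAS5 signal (vertical axis, its range set per panel) of 6 genes in every pool by strain (horizontal axis) and age; points are pools, blue at E18.5 and orange at P30.5, and black bars are group means. The P30.5 pools of Ndufs1, Ndufv1, Sdha and Ndufaf5 lie above the E18.5 pools of the same strain, and those of Ndufa4l2 lie below, from 3.07 to 7.40 against 10.57 to 11.46.

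Complex III showed 1 call in the 5 strains, Uqcrq in CAST/EiJ, and its core protein Uqcrc2 changed by -0.08 to 0.30. With array date as a block up to 3 of the 8 complex III genes passed in a strain, Uqcrc2 in CAST/EiJ among them. Among the 10 ubiquitous subunits of complex IV, Cox7c was lower in C57BL6/J (-0.82 ± 0.26, adjusted p = 0.018) and RD7 (-0.73 ± 0.26, 0.0344), Cox8a was higher in AKR/J and RD7, and Ndufa4 was higher in CAST/EiJ. The Cox7c call in C57BL6/J was lost with array date as a block (-0.67, adjusted p = 0.086). That block in effect leaves out E18.5 pool 3, which was alone on its date. Each of these calls was lost without at least 1 single pool (Cox7c -0.70 in C57BL6/J without E18.5 pool 3 and -0.54 in RD7 without P30.5 pool 1, Cox8a 0.72 in AKR/J without P30.5 pool 3 and 0.58 in RD7 without E18.5 pool 2, Ndufa4 0.46 without P30.5 pool 2), and Cox7c, Cox8a and Uqcrq were named after their values were seen. In fits with 1 pool left out, the Cox8a call was kept in 0 of 5 in AKR/J and 2 of 6 in RD7. That of Cox7c was kept in 3 of 6 in C57BL6/J and 2 of 6 in RD7, and that of Ndufa4 in 4 of 6. Cox4i1, the regulatory subunit, had a median change of 0.07 and a range from -0.18 to 0.12.

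In complex V, which makes ATP, the catalytic beta subunit Atp5b rose in RD7 (0.49 ± 0.14, adjusted p = 0.0068), NOD.NON-H2-nb1 (0.43 ± 0.14, 0.0188) and CAST/EiJ (0.63 ± 0.14, 0.000678). In C57BL6/J it measured 13.61, 13.53 and 13.41 at E18.5 and 13.78, 14.07 and 13.64 at P30.5, where the pools did not overlap and the adjusted p was 0.0923. The NOD.NON-H2-nb1 call of Atp5b was lost without E18.5 pool 1 (0.38, adjusted p = 0.0772) or P30.5 pool 2 (0.40, 0.0651). Atp5e, the epsilon subunit of the central stalk, was lower in AKR/J (-1.05 ± 0.26, adjusted p = 0.00299) and RD7 (-0.81 ± 0.23, 0.00909) and lay at -0.61 to -0.54 elsewhere. Without 1 pool these calls were lost, at -0.74 in AKR/J (E18.5 pool 1) and -0.57 in RD7 (P30.5 pool 3). Atp5o, Atp5g2 and Atp5md were called in 1 or 2 strains each, the first 2 lower and Atp5md higher. In fits with 1 pool left out, the Atp5o call was kept in 2 of 6 in C57BL6/J and 2 of 6 in RD7. That of Atp5md in C57BL6/J was kept in 3 of 6. Atp5e, Atp5o, Atp5g2 and Atp5md were named after their values were seen. The representative of Atp5g2 fell by 0.91 in NOD.NON-H2-nb1 and by 0.69 in RD7, while another probe set of Atp5g2 had RMA values of 0.02 and 0.09 there. The RD7 call of Atp5g2 was lost without any 1 of 4 of the 6 pools, with -0.37 without P30.5 pool 3 (adjusted p = 0.29).

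The largest change of all 90 genes was the fall of Ndufa4l2, a paralogue of the complex IV subunit Ndufa4 that is induced by hypoxia in cultured mammalian cells. Its pools measured 11.46, 11.17 and 11.29 in C57BL6/J at E18.5 and 4.69, 3.07 and 5.37 at P30.5, a change of -6.93 ± 0.59 (adjusted p = 4.34e-10). In AKR/J they went from 10.67 and 10.65 to 6.80, 5.60 and 3.94 (-5.21 ± 0.65, adjusted p = 6.55e-07). In CAST/EiJ they went from 11.11, 11.12 and 10.57 to 6.63, 6.13 and 7.40 (-4.21 ± 0.59, adjusted p = 2.41e-06). The fall was -5.39 ± 0.59 in NOD.NON-H2-nb1 (adjusted p = 4.42e-08) and -5.17 ± 0.59 in RD7 (9.38e-08). No pool at P30.5 came near any pool at E18.5, and the P30.5 signals are dim, so the size of the fall depends on the floor: on log2(signal + 16) it was -6.04 in C57BL6/J and -4.97 to -4.01 in the other strains. Within each array date that held both ages of a strain, Ndufa4l2 fell by 3.18 or more. Ndufa4 itself stood at 11.41, 12.07 and 11.92 in C57BL6/J at E18.5 and at 11.98, 12.38 and 12.24 at P30.5, a change of 0.40 ± 0.24 (adjusted p = 0.254), and passed in CAST/EiJ (0.74 ± 0.24, 0.0217).

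The other tissue isoforms had mean log2 signals of 3.67 (Cox7b2) to 7.86 (Cox8c), and their changes followed no single direction. Cox8b, the muscle isoform of subunit 8, measured 2.94, 2.62 and 0.51 in C57BL6/J at E18.5 and 7.38, 5.65 and 6.95 at P30.5 (4.64 ± 0.89, adjusted p = 0.000197), and 2.51 on log2(signal + 16) (adjusted p = 0.000627). It was also called in CAST/EiJ (2.73 ± 0.89, adjusted p = 0.0224), where the floor of 16 (1.27, 0.0847) and the RMA values (0.55, 0.281) took it below the threshold. Leaving out either E18.5 pool with a low Cox8b signal (1.71 and 2.17), P30.5 pool 1 (2.69) or P30.5 pool 2 (2.61) also ended that call. In the other strains the change of Cox8b was 1.20 to 1.70. Cox6b2, the testis isoform of subunit 6b, was lower in CAST/EiJ (-1.10 ± 0.29, adjusted p = 0.00572) and RD7 (-1.21 ± 0.29, 0.00259) and between -0.62 and -0.55 elsewhere. Cox4i2, Cox7a1, Cox7b2 and Cox8c passed in no strain, nor did Cox6a1, Cox6b1 and Cox7a2, the ubiquitous counterparts of Cox6a2, Cox6b2 and Cox7a1. With array date as a block, Cox8c passed in AKR/J and Cox7a2 in C57BL6/J and NOD.NON-H2-nb1. Cox7a2l, a bright relative (13.21) that helps to join complexes III and IV, was called lower in NOD.NON-H2-nb1 (-0.65 ± 0.22, adjusted p = 0.0315, and -0.47 with no call without E18.5 pool 3). Over the strains it changed by -0.65 to -0.10, and with array date as a block it passed in CAST/EiJ too. The NOD.NON-H2-nb1 call of Cox7a2l was kept in 2 of 6 fits with 1 pool left out.

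Cox6a2, the muscle isoform of subunit 6a, was called lower with age in AKR/J (-3.09 ± 0.85, adjusted p = 0.00738) and changed by -0.76 to 0.99 elsewhere, with no call. Its AKR/J pools stood at 9.19 and 8.64 at E18.5 and at 6.83, 6.73 and 3.93 at P30.5, without overlap. Without the third P30.5 pool the change was -2.13 (adjusted p = 0.0674), and without the first E18.5 pool -2.81 (0.0797). At E18.5 the AKR/J pools were above the C57BL6/J pools, which measured 6.24, 5.52 and 6.16, by 2.95 ± 0.85 (adjusted p = 0.0291), a call that was lost without any 1 of the 5 pools (2.67 to 3.22). The second, dimmer probe set of Cox6a2 was called in the same direction in both comparisons. Cox8b was higher as well at E18.5 in AKR/J (6.59 and 5.83, a difference of 4.19 ± 1.0, adjusted p = 0.00784), as it was in the pools of NOD.NON-H2-nb1 (5.66, 5.00 and 5.28, a difference of 3.29 ± 0.89, 0.0455). The NOD.NON-H2-nb1 call of Cox8b was lost with array date as a block (2.67, adjusted p = 0.143), on log2(signal + 16) (1.42, 0.253) and with RMA values (0.44, 0.772), and without any of 5 of the 6 pools (2.54 to 3.59). The AKR/J call was lost without E18.5 pool 1 (3.81, adjusted p = 0.108) or the C57BL6/J pool at 0.51 (3.43, 0.0548).

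The skeletal muscle markers moved with Cox6a2. All 12 listed markers were measured, and the log2 of their summed signal at E18.5 was 10.87 to 15.77 in RD7, 9.86 to 14.99 in NOD.NON-H2-nb1, 9.63 to 9.98 in C57BL6/J, 15.67 to 15.82 in AKR/J and 11.45 to 15.02 in CAST/EiJ, and 9.50 to 10.81 in all pools at P30.5. In the 6 pools whose markers had a mean of 10 or more, Cox6a2 lay between 8.40 and 9.29, and in the other 8 pools at E18.5 between 4.74 and 7.11. In CAST/EiJ the pool with a marker mean of 11.03 had Cox6a2 at 9.29 and Cox8b at 6.52, and the pools at 7.48 and 7.75 had Cox6a2 at 6.78 and 7.11 and Cox8b at 1.27 and 2.20. Cox8b departed from this in NOD.NON-H2-nb1, where it was at 5.00 in a pool with a marker mean of 5.53, and at P30.5, where it was at 5.65 to 8.73 in pools with marker means of 4.38 to 6.13. The 2 AKR/J pools at E18.5 both had high muscle markers, so strain and muscle RNA cannot be told apart for Cox6a2 and Cox8b in AKR/J. Cox7a1, the third muscle isoform, was at 5.17 to 5.83 in C57BL6/J and 6.47 to 6.54 in AKR/J at E18.5 (1.01 ± 0.57, adjusted p = 0.377).

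**Figure D4:**
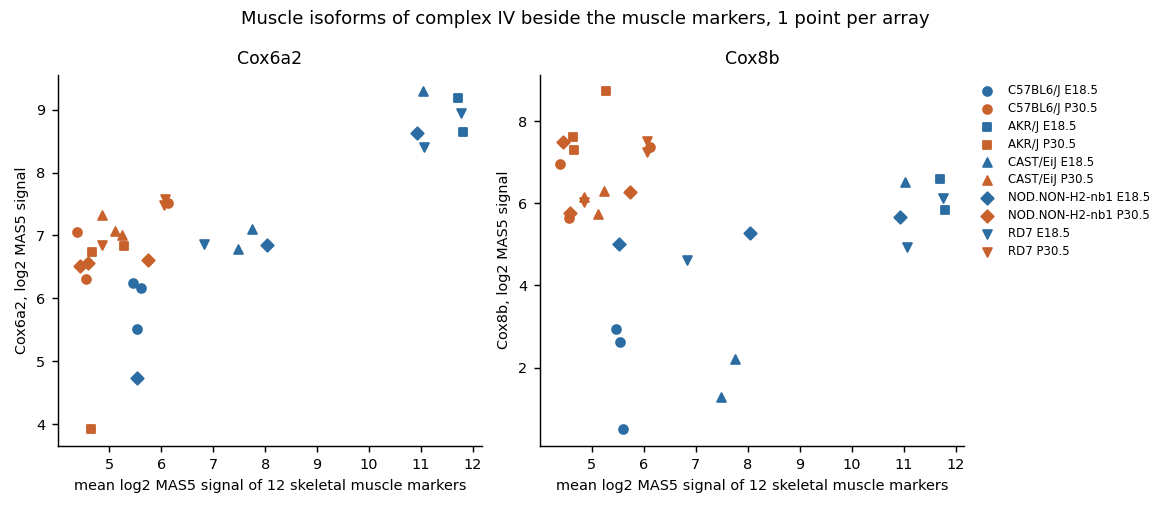
Log2 MAS5 signal of Cox6a2 and Cox8b (vertical axes) against the mean log2 signal of 12 skeletal muscle markers (horizontal axis) in 29 arrays; the symbol gives the strain, blue is E18.5 and orange P30.5. The 6 arrays with a marker mean of 10 or more have Cox6a2 between 8.40 and 9.29, whereas Cox8b is at 5.65 to 8.73 in P30.5 arrays with marker means of 6.13 or less.

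Without the E18.5 pools with a muscle marker mean of 10 or more, an alternative added after the data were seen, the number of genes called with age was 11 in NOD.NON-H2-nb1 and 13 in CAST/EiJ. The share of all genes called in that fit was not computed, so these counts cannot be set against it. In RD7 1 pool remained at E18.5 and was taken to vary like the other groups, so only effect sizes are given there. Sdha and Ndufa4l2 changed by 0.56 to 0.79 and -5.54 to -4.13 in these 3 strains without the pools, and passed in NOD.NON-H2-nb1 and CAST/EiJ. Ndufs1 did not pass in NOD.NON-H2-nb1 (0.42, adjusted p = 0.0726), nor Ndufv1 (0.55) and Ndufaf5 (0.47) in RD7. AKR/J had no other pool at E18.5. Without its second pool, which leaves 1, the changes of Ndufs1 (0.58), Ndufv1 (0.59) and Sdha (0.58) did not pass.

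Genes of the same pathway outside the 90 were taken from lists of general knowledge. In each strain 15.9% to 17.6% of all genes were higher with age and 15.7% to 17.6% lower. Of 25 assembly factors of complexes II to V, 6 to 10 were higher with age in a strain and at most 1 was lower, with a list median of 0.17 to 0.40. Uqcc3 and Ttc19, which act on complex III, rose by 1.32 to 2.18 and 0.91 to 1.89, and Surf1, which acts on complex IV, by 0.87 to 1.08. Of 12 enzymes of the tricarboxylic acid cycle, 2 to 5 were higher and 1 to 3 lower. Ogdh and Idh3a, which catalyse oxidative steps of that cycle, were higher in every strain by 0.72 to 0.98 and 0.68 to 1.24, and Suclg2, the GTP-forming subunit of succinyl-CoA ligase, was lower in every strain by -1.98 to -1.27.

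Of 13 regulators of mitochondrial biogenesis, 4 to 6 were higher and 2 or 3 lower. The coactivators Ppargc1a (2.22 to 3.05) and Ppargc1b (2.66 to 4.58) and the estrogen-related receptors Esrrb (4.85 to 5.62) and Esrrg (1.71 to 2.66) rose in every strain, and Tfam, which packages mitochondrial DNA and helps to start its transcription, fell in every strain (-1.28 to -1.04). Gabpa, a subunit of GABP, fell by 0.53 to 0.76 in 4 strains and stood at -0.27 in CAST/EiJ (adjusted p = 0.256). Of 8 genes of nucleotide and phosphate exchange, 2 to 4 rose and none fell. Ckmt1, the mitochondrial creatine kinase, rose by 2.20 to 3.06 and Slc25a5, an ADP/ATP carrier, by 0.56 to 0.80 in all 5 strains. Of 7 genes of electron carriers, at most 1 was higher and 1 or 2 were lower in a strain. Etfa, a subunit of the electron transfer flavoprotein, was lower in all 5 strains (-0.81 to -0.44), and Coq7, an enzyme of ubiquinone synthesis, was higher in 4 (0.45 to 0.79). Cycs, the electron carrier between complexes III and IV, changed by -0.18 to 0.28 and passed in none.

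Between strains, 16 of the 90 genes differed from C57BL6/J in at least 1 of 8 comparisons (17.8%, against 28.4% of all genes). At E18.5 the counts were 0 in RD7 (3.39% of all genes), 2 in NOD.NON-H2-nb1 (1 higher, 1 lower, 2.22% against 2.30% of all genes), 10 in CAST/EiJ (2 and 8, 11.1% against 14.9%) and 4 in AKR/J (3 and 1, 4.44% against 9.96%). At P30.5 they were 0 in RD7 (0.577% of all genes), 1 in NOD.NON-H2-nb1 (lower, 1.11% against 2.06%), 11 in CAST/EiJ (3 and 8, 12.2% against 12.4%) and 1 in AKR/J (lower, 1.11% against 2.65%). At the threshold of the methods the counts at E18.5 were 0 (0.396% of all genes), 1 (0.500%), 5 (4.23%) and 1 (2.19%) in the same order of strains, and at P30.5 they were 0 (0.203%), 1 (0.577%), 6 (3.25%) and 1 (0.588%). At an unadjusted p under 0.05, RD7 had 3 genes at each age, where 14.5% of all genes passed before birth and 6.9% after it, and with array date as a block 1 was called at E18.5 (3.05% of all genes) and 0 at P30.5 (0.841%). With that block the counts at P30.5 were 2 in NOD.NON-H2-nb1 (3.44% of all genes), 22 in CAST/EiJ (13 higher, 9 lower, 24.4% against 18.2%) and 4 in AKR/J (3 and 1, 4.44% against 4.09%). Scaling mattered for CAST/EiJ: centred on their medians, its arrays gave 7 higher and 5 lower at E18.5 and 17 higher and 7 lower at P30.5, and the median difference over all probe sets moved from -0.0745 to 0.148 at E18.5 and from -0.0612 to 0.191 at P30.5. The share of all genes called under that centring was not computed, so whether the rise was particular to these genes was not tested. Single pools mattered at E18.5: the CAST/EiJ count was 6 without its pool 3, the AKR/J count was 1 to 3 without 1 pool (1 without AKR/J pool 1 or C57BL6/J pool 3), and for NOD.NON-H2-nb1 1 call was left without any 1 of its own pools. The mean log2 signal of 10 pigment epithelium markers at E18.5 was 7.37 to 8.32 in C57BL6/J, 10.18 to 10.57 in RD7, 8.48 to 9.99 in NOD.NON-H2-nb1, 10.15 to 10.46 in CAST/EiJ and 9.79 to 10.44 in AKR/J. No other strain overlapped C57BL6/J. Rod markers did not overlap either, at 7.02 to 7.62 in C57BL6/J and 5.31 to 6.85 in the other strains at E18.5. The part of either set of markers in the E18.5 differences was not tested. At P30.5 the pigment epithelium markers stood at 9.71 to 11.28 in C57BL6/J and at 9.95 to 11.38 in the others.

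Ndufs5, an accessory subunit on the intermembrane side of complex I, was low in 2 strains at both ages. The C57BL6/J pools measured 9.49, 9.76 and 9.41 at E18.5, against 6.02, 6.90 and 6.87 for NOD.NON-H2-nb1 (-2.96 ± 0.27, adjusted p = 3.13e-08) and 8.56, 8.32 and 7.56 in CAST/EiJ (-1.41 ± 0.27, 0.000384). At P30.5 they were 10.38, 10.42 and 10.05 in C57BL6/J, 6.90, 7.35 and 6.79 for NOD.NON-H2-nb1 (-3.27 ± 0.27, adjusted p = 6.4e-09) and 8.78, 9.07 and 8.29 in CAST/EiJ (-1.57 ± 0.27, 0.000122). The groups did not overlap, while AKR/J (0.15 and -0.06) and RD7 (0.22 and -0.06) overlapped C57BL6/J at both ages. The RMA values of the same probe set gave -1.87 and -1.64 in NOD.NON-H2-nb1 and -0.96 and -1.24 in CAST/EiJ, all past the threshold. Within single array dates the NOD.NON-H2-nb1 difference was -3.48 to -2.89. Ndufs5 has 1 probe set, and within NOD.NON-H2-nb1 its age change was 0.42 ± 0.27 (adjusted p = 0.299), beside 0.73 ± 0.27 in C57BL6/J (0.0445). The C57BL6/J call with age was kept in 2 of 6 fits with 1 pool left out.

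Ndufaf1, an assembly factor of the membrane arm of complex I, was low in AKR/J. It measured 8.31 and 8.29 in AKR/J at E18.5 against 9.57, 9.91 and 9.75 in C57BL6/J (-1.44 ± 0.15, adjusted p = 7.59e-07). At P30.5 it measured 8.14, 8.20 and 8.07 against 9.54, 9.93 and 9.78 (-1.61 ± 0.14, adjusted p = 1.29e-08). Over the other 3 strains the differences ran from -0.04 to 0.27 and none passed, and all their pools, at 9.61 to 10.16, lay above all AKR/J pools. The RMA values gave -1.61 and -1.70. Ndufaf1 also has 1 probe set, and its level changed with age in none of the 5 strains (-0.24 to 0.01).

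**Figure D5:**
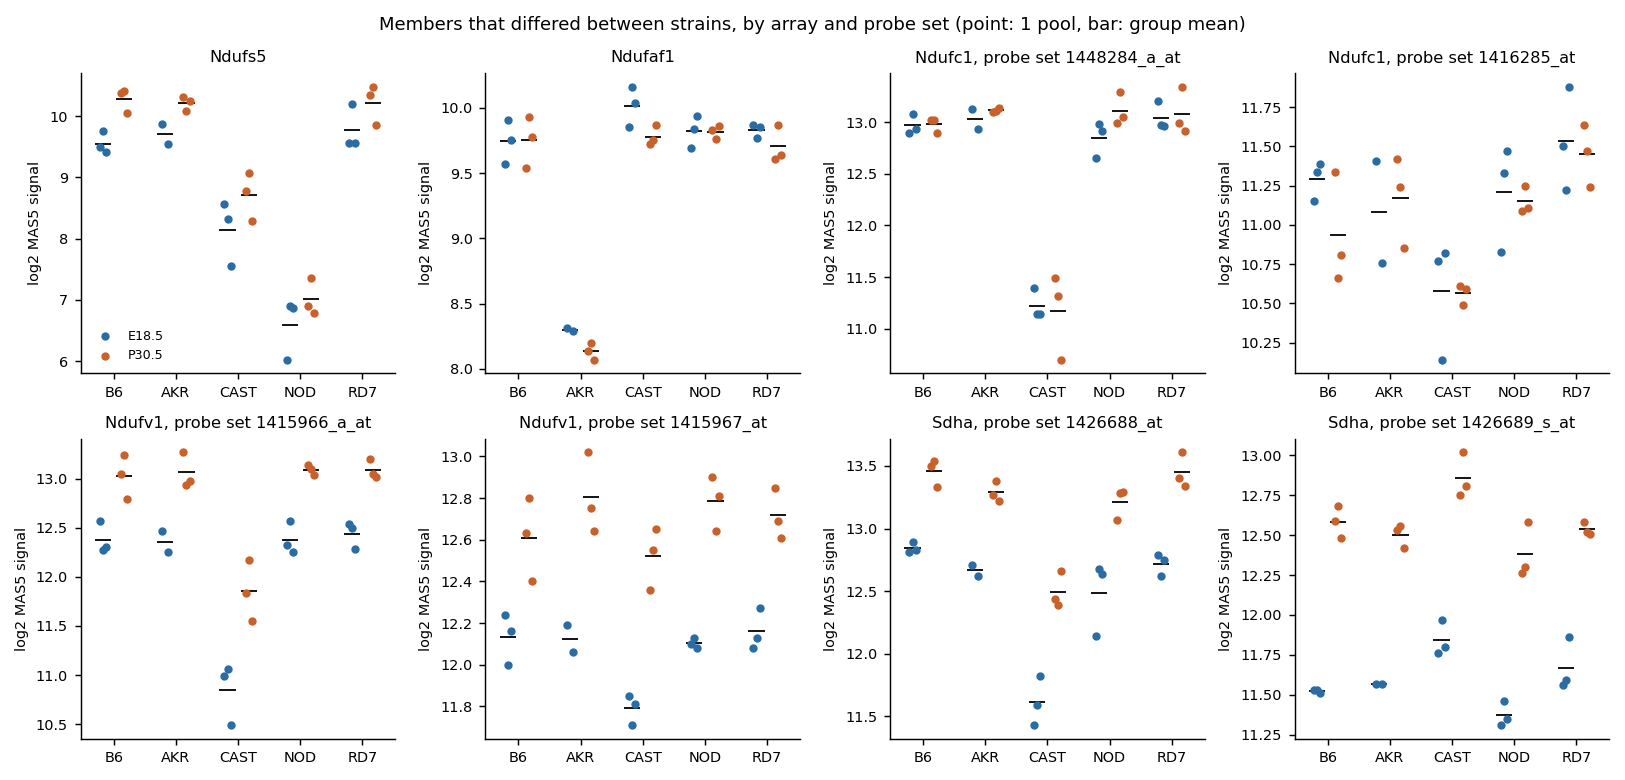
Log2 MAS5 signal (vertical axis, its range set per panel) by strain (horizontal axis) for 5 genes, with 2 probe sets each for Ndufc1, Ndufv1 and Sdha; points are pools, blue at E18.5 and orange at P30.5, and bars are group means. The low level of NOD.NON-H2-nb1 in Ndufs5 (6.02 to 7.35) and of AKR/J in Ndufaf1 (8.07 to 8.31) is seen at both ages, and the low level of CAST/EiJ in Sdha is seen in the first probe set and not in the second.

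In CAST/EiJ, 8 genes (8.89%, against 5.40% of all genes) were called at both ages: Ndufa5, Ndufa12, Ndufc1, Ndufs5, Ndufv1, Sdha and Atp5md, all lower, and Uqcrc1, higher. Ndufc1, a small subunit of the membrane arm, had the largest difference at E18.5, with 11.39, 11.14 and 11.14 in CAST/EiJ against 12.89, 13.08 and 12.93 (-1.74 ± 0.16, adjusted p = 1.16e-08). At P30.5 it had 11.49, 11.32 and 10.70 against 13.02, 13.02 and 12.89 (-1.81 ± 0.16, adjusted p = 6.96e-09). The second probe set of Ndufc1 gave -0.72, which passed, at E18.5 and -0.37, which did not, at P30.5. Atp5md, which couples dimers of ATP synthase, measured 9.77, 10.13 and 9.30 at P30.5 against 11.39, 11.42 and 10.92 (-1.51 ± 0.28, adjusted p = 0.000278), and at E18.5 it differed by -0.83 (0.0407), with overlapping pools and no call under median centring (-0.61, 0.168), without the pools with much muscle RNA (-0.88, 0.0932) or without CAST/EiJ pool 3 (-0.60, 0.219). The E18.5 call of Atp5md was kept in 2 of 6 fits with 1 pool left out.

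The size of other CAST/EiJ differences depended on the probe set. For Ndufv1 the brightest probe set gave -1.53 ± 0.17 at E18.5 (adjusted p = 1.61e-07) and -1.17 ± 0.17 at P30.5 (1.22e-05), and its other 2 probe sets gave -0.34 and -0.09, neither called, and -0.78 and -0.61, both called. For Sdha the brightest probe set gave -1.23 ± 0.14 (adjusted p = 4.06e-07) and -0.96 ± 0.14 (2.03e-05), and the second bright one 0.32 and 0.28, neither called. For Ndufa12, which completes the matrix arm of complex I, the representative gave -1.44 and -1.74, and 2 probe sets of the same brightness gave -0.42 and -0.71, and 0.18 and 0.19, none of them called. Ndufa5 differed by -0.80 ± 0.25 (adjusted p = 0.0309) and -1.25 ± 0.25 (0.000876). Its second probe set differed by -0.65 and -0.91, neither called, with RMA values of -0.10 and -0.16. The Ndufa5 call at E18.5 was kept in 1 of 6 fits with 1 pool left out, and the difference shrank to -0.49 without CAST/EiJ pool 3. Probe sequences were not used here, so whether these strains differ in sequence under the probes was not tested.

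Higher in CAST/EiJ were Uqcrc1, a core protein of complex III (0.53 ± 0.14, adjusted p = 0.00966 at E18.5, then 0.86 ± 0.14, 7.51e-05 at P30.5), and, at the later age, Ndufs3, a core subunit of complex I (0.56 ± 0.15, 0.00903). Without CAST/EiJ pool 3 the difference of Uqcrc1 at E18.5 was 0.37 (adjusted p = 0.0993), and without C57BL6/J pool 1 it was 0.46 (0.0579). Without CAST/EiJ pool 2 the difference of Ndufs3 was 0.46 (0.0664). Uqcrc1 measured 12.77, 12.93 and 12.91 at P30.5 against 12.07, 12.06 and 11.89 in C57BL6/J. Atp5g1, which codes for the c-ring subunit of ATP synthase, was higher at E18.5 in CAST/EiJ (1.21 ± 0.29, adjusted p = 0.00356) and AKR/J (1.16 ± 0.32, 0.022), but its second, dim probe set was lower (-3.70, called, and -2.47, not called), and so were the RMA values of that probe set (-1.41 and -1.18). The AKR/J call of Atp5g1 was kept in 1 of 5 fits with 1 pool left out, and the difference was 1.04 without AKR/J pool 1. Uqcrc1, Ndufs3 and Atp5g1 were named after their values were seen. At P30.5 the CAST/EiJ level of Ndufa4l2 lay above that of C57BL6/J (2.34 ± 0.59, adjusted p = 0.00666), a difference that was 1.69 without the C57BL6/J pool at 3.07 (0.0757). Cox7b2, at 0.94, 2.90 and 1.39 against 4.33, 4.94 and 4.50, was lower there (-2.85 ± 0.95, adjusted p = 0.0473), at signals so dim that log2(signal + 16) gave -1.02 (0.0669), and leaving out any 1 of 5 of the 6 pools ended the call (-2.98 to -2.45).

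The age change itself was tested between each strain and C57BL6/J, and it differed for none of the 90 genes at an adjusted p under 0.05, where 0.747% of all genes were called for RD7, 0.121% for NOD.NON-H2-nb1, 2.28% for CAST/EiJ and 1.89% for AKR/J. At an unadjusted p under 0.05 there were 4, 1, 3 and 4 genes, beside 9.94%, 7.61%, 14.6% and 14.6% of all genes. The smallest p-values were those of Cox6a2 in AKR/J (-4.08 ± 1.13, limma adjusted p = 0.0759) and of Ndufa4l2 in CAST/EiJ, where the fall was smaller by 2.71 (95% interval 1.01 to 4.42, adjusted p = 0.11). For Ndufs5 the age change differed by -0.31 in NOD.NON-H2-nb1 (95% interval -1.09 to 0.47) and by -0.16 in CAST/EiJ (-0.94 to 0.62), and for Ndufaf1 by -0.17 in AKR/J (-0.60 to 0.25).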

How the data were processed

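Total RNA from pooled retinas was hybridised to 29 Affymetrix arrays, 10 groups in all. The authors deposited MAS5 signals, linear intensities of 45101 probe sets, and an RMA table of log2 values for 25444 of them. How MAS5 was scaled and how the RMA table was filtered are not given in the sources used here. In the MAS5 values, the mean trimmed by 2% at each end was 500.0 on every array. MAS5 subtracts mismatch probes and is noisy for dim probe sets. From the gene annotation, 34958 probe sets have 1 symbol, 932 several and 9211 none listed.

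The log2 signals as deposited were modelled by group with limma (3.58.1, under R 4.3.3; 10 group means, empirical Bayes with an intensity trend, 19 residual degrees of freedom), with Benjamini-Hochberg adjustment over all probe sets of a contrast. A gene was called at an adjusted p under 0.05. The fit was tested on simulated data. Alternatives covered scaling, filters, log2(signal + 16), RMA values, probe set choice, the methods' threshold (adjusted p under 0.001 and at least 2-fold), single arrays left out and array date as a block. The labels give the date, and arrays of the same date deviated together (mean correlation 0.278, against -0.128 between dates, and above 0.1 in 44 of 45 pairs of groups over 16224 probe sets). One date held only C57BL6/J E18.5 pool 3. With date as a block, every contrast that uses C57BL6/J at E18.5 therefore rests on its other pools.

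The genes and lists were chosen with earlier results of these data known. Genes were named by rule: the complex IV isoforms with their counterparts, the 3 largest age changes shared by at least 3 strains and the smallest in each functional group, and the largest strain differences. Genes outside it are marked in the text, or are Ndufaf2, Ndufaf3, Ndufaf4, Ndufa10 in CAST/EiJ at E18.5 and the genes of other lists, chosen after their values were seen.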

Additional observations from a re-analysis of the deposited data

How the results depend on the processing

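Of 192 alternative counts, which exclude fits with 1 array left out, 160 were within 1.5 times the reported one. Several reported counts were 0, and an alternative of 0 then counts as within that range. For alternatives other than the block and the threshold of the methods, the share of all genes called was not computed. Their counts, also those with 1 array left out, cannot be set against all genes. Of 1520 alternative values of the 94 gene results, 1272 kept their direction and call, 240 kept the direction without the call and 8 changed sign. The threshold of the methods left with age 1 gene in RD7, 1 in NOD.NON-H2-nb1, 1 in AKR/J, 2 in C57BL6/J and 4 in CAST/EiJ. It left 1 in NOD.NON-H2-nb1, 5 in CAST/EiJ and 1 in AKR/J before birth, and 1, 6 and 1 in the same strains after birth. With array date as a replicate block the counts were 27, 28 and 23 with age in NOD.NON-H2-nb1, CAST/EiJ and AKR/J, 1 in RD7 at E18.5, and 2, 22 and 4 in NOD.NON-H2-nb1, CAST/EiJ and AKR/J after birth. Under that block Cox7c and Ndufs5 with age in C57BL6/J and the prenatal difference of Cox8b in NOD.NON-H2-nb1 lost their calls, and no other call was lost. Each of these uses C57BL6/J at E18.5, whose pool 3 the block in effect leaves out. Without dim probe sets, where fewer tests were adjusted for, 17 genes were called with age in AKR/J against 20 in NOD.NON-H2-nb1. Fits of only the arrays of the same strain or age gave 7 with age in RD7, 1 in prenatal NOD.NON-H2-nb1 and 1 for the age change of AKR/J against C57BL6/J. Without the E18.5 pools with much muscle RNA, RD7 kept 1 pool at E18.5, so its count is not given. Without the intensity trend NOD.NON-H2-nb1 had 1 and AKR/J 2 before birth, and quantile normalization, log2(signal + 16), leaving out dim probe sets and leaving out the RD7 arrays each gave 1 for NOD.NON-H2-nb1 as well. Centring on medians gave 1 in RD7 at E18.5 and 24 in CAST/EiJ at P30.5, leaving out the RD7 arrays gave 2 in AKR/J at P30.5, and leaving out probe sets that can cross-hybridise gave 1 for the age change of CAST/EiJ. The cause of these shifts was not tested.

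Leaving out 1 array gave 11 to 15 genes with age in RD7, 8 to 10 in NOD.NON-H2-nb1, 10 to 13 in C57BL6/J, 4 to 12 in AKR/J and 12 to 18 in CAST/EiJ. Before birth it gave 0 to 1 in RD7, 1 to 2 in NOD.NON-H2-nb1, 1 to 3 in AKR/J and 6 to 11 in CAST/EiJ, and after birth 0 in RD7, 1 in NOD.NON-H2-nb1, 9 to 13 in CAST/EiJ and 1 in AKR/J.

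Values changed sign with RMA values for Ndufa3 in C57BL6/J (0.07 with age), Atp5g2 in NOD.NON-H2-nb1 (0.02) and RD7 (0.09), and Atp5g1 at E18.5 in AKR/J (-1.18) and CAST/EiJ (-1.41), each from another probe set of the gene. The median over probe sets changed it for Atp5g1 in AKR/J (-0.65) and CAST/EiJ (-1.24) and took Sdha in CAST/EiJ at P30.5 to 0.00. With 2 or 3 pools a group, a missed call does not show that a gene did not change.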
